A study of Homo sapiens with 16 samples.

Results

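The 10 genes described here are immediate early genes of human kidney organoids, FOS, FOSB, FOSL1, JUN, JUNB, EGR1, ATF3, IER2, IER3 and DUSP1. They were chosen by name as members of this class, and FOSB was singled out because its RNA fell strongly with culture day in set 2 but not in set 1. The change of FOSB by day was therefore used in the choice and is given below as a description with no test. The list as a whole was drawn up with earlier results of these data known, values by day among them. Tests of the other members by day are therefore not independent of the choice. Of the genes measured, 9 of these 10 are among the 20121 listed in set 1, where FOSL1 is not listed, and all 10 are among the 27650 of set 2, the 21093 of the TNFα set and the 36601 of the single-cell matrices.

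All samples came from 1 established human embryonic stem cell line, UM77-2, differentiated into kidney organoids without genetic change. Bulk RNA was taken from isolated spheroids. Set 1 holds 1 library each from days 21, 25 and 29 of culture, and set 2 holds 2 libraries, Org1 and Org2, from each of these days, from cultures that were refed daily from day 17. The TNFα set holds 4 libraries of spheroids collected on day 25 after vehicle (VC) or 5 ng/ml of the inflammatory cytokine TNFα, for 24 h or 48 h, 1 library each. By the labels the treatment began on day 23 in all 4 and was replenished on day 24 in the 48 h wells. Duration and replenishment therefore cannot be told apart. All 4 are labelled as collected on day 25, but 24 h from day 23 ends on day 24. How the 24 h wells fit is not stated, so culture day may differ between 24 h and 48 h as well. The single-cell libraries, 1 of VC and 1 of TNFα at 24 h, came from whole wells on day 24, dissociated with a cold active protease, and hold the cells around the spheroids as well. The organoids are a model of developing kidney from a single line.

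Immediate early genes are transcribed within minutes of a signal, without new protein having to be made first, and their RNAs are short-lived. Growth factors, cytokines and stress reach them through MAP kinases, which act on promoter-bound factors such as SRF with its ELK partners and CREB. FOS and JUN proteins pair into the transcription factor AP-1, EGR1 is a zinc finger transcription factor, and DUSP1 is a phosphatase that removes the activating phosphates from MAP kinases and so closes the loop. In kidney these genes are known for their response to injury and to growth factors.

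The promoters of 8 of the 10 genes were found in the RefSeq promoter table (GRCh38.p14). Those of FOS, FOSB, EGR1 and DUSP1 are shown because the first 3 differed most among members between 24 h and 48 h in the TNFα set and DUSP1, their feedback regulator, fell with FOS and FOSB in set 2. Each run is the 250 bases before the annotated transcription start, read 5′ to 3′ on the strand of the gene, with matches to TGACG on either strand (the core of the CREB and ATF site) and to the CArG box (the site of SRF) in capitals.
FOS, chr14:75278578-75278827, plus strand: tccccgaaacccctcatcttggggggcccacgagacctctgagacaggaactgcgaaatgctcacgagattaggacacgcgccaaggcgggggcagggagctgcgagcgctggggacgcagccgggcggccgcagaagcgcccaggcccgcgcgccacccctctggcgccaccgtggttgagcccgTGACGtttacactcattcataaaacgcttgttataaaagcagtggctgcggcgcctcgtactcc
FOSB, chr19:45467746-45467995, plus strand: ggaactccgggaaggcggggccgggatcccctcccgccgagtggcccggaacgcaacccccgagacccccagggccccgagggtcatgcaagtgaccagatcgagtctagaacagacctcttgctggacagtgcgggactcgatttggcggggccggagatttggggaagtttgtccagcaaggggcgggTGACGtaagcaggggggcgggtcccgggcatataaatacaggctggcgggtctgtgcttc
EGR1, chr5:138465229-138465478, plus strand: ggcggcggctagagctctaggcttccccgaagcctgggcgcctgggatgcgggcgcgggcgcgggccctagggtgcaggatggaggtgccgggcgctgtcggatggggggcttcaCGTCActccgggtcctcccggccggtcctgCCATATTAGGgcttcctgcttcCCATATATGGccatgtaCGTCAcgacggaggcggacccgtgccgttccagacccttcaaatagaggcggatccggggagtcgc
DUSP1, chr5:172771196-172771445, minus strand: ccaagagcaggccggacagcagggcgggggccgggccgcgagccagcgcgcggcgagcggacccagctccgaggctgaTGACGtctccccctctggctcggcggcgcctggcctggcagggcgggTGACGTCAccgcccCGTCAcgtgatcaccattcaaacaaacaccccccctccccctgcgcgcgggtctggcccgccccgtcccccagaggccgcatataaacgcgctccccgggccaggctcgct

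TGACG stood 64 to 60 bases before the start of FOS and 60 to 56 bases before the start of FOSB, so at nearly the same distance. It was also found in the same 250 bases of JUN, JUNB, EGR1, IER2 and DUSP1, which makes 7 of the 8 genes with a promoter entry. Neither of the 2 windows listed for ATF3 held it. The second of these, chr1:212614768-212615017, lies within the gene, and no other part of ATF3 was searched. Whether ATF3 has the motif elsewhere is therefore not known from this search. Of all 35116 promoters searched over the same length, 21.2% hold it. The full palindrome TGACGTCA, held by 1.65% of promoters, was found in DUSP1 from 125 to 118 bases before the start, and the 2 CArG boxes of EGR1, at 105 to 96 and 83 to 74 bases, belong to a motif held by 1.16% of promoters. TATAAA, held by 10.7%, lay 33 to 28 bases before the start of FOS, 31 to 26 before that of JUNB and 30 to 25 before that of FOSB and of DUSP1. It also lay 230 to 225 bases before the end of the second ATF3 window. The AP-1 site TGANTCA, held by 6.57% of promoters, was found in none of the 8. These matches are letters in a window and were not tested as binding sites. Only the 250 bases before each start were searched, so a motif farther away, in FOS or any other gene, was not seen.

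Bulk values are log2(CPM + 1), with CPM the counts per 1e6 reads of a library, and all differences below are on this scale. The libraries held 25508651 to 29408687 reads in set 1, 19073609 to 30282025 in set 2 and 49948198 to 59246286 in the TNFα set, so the levels of all members except FOSL1 rest on 26 reads or more in each library. The 3 tables were normalized separately, and levels are compared only within a table. All 9 podocyte markers were listed in each bulk table, and their summed level ran from 3007 to 12310 CPM. Of 5 immune cell markers only 1 was listed in the set 2 and TNFα tables. In bulk RNA, fewer cells of a type and less RNA per cell cannot be told apart.

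FOSB was lower on each later day of set 2, the pattern that its choice rests on. FOSB (ENSG00000125740, chromosome 19, 45467995 to 45475179), a partner of JUN proteins that forms AP-1, stood at 6.82 (Org1) and 5.47 (Org2) on day 21, at 5.98 and 4.74 on day 25 and at 4.20 and 1.83 on day 29. These are 2435, 1191, 1188, 571, 525 and 70 reads. The day means were 6.14 ± 0.96, 5.36 ± 0.88 and 3.01 ± 1.68 (SD, n = 2), and the day 29 libraries lay below all earlier ones. The difference between days 29 and 21 was -2.63 in Org1 and -3.64 in Org2, against a pooled SD within a day of 1.23. Org1 was above Org2 on all 3 days, which also holds for 20.1% of all genes, and the day 29 Org2 library lay 2.37 below its Org1 partner, so the difference of the day means, -3.13, was -1.95 without Org2 of day 29 and -4.32 without Org1 of day 29.

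FOS (ENSG00000170345, chromosome 14, 75278826 to 75282230), the founding member of this family, went the same way. It stood at 8.54 and 7.54 on day 21, at 7.75 and 6.88 on day 25 and at 6.39 and 4.47 on day 29, so that the day 29 libraries were the lowest and did not overlap the others. DUSP1 (ENSG00000120129, chromosome 5, 172768096 to 172771195) stood at 6.61 and 6.19, then 6.06 and 5.78, then 5.55 and 5.25, falling without overlap from each day to the next. Each gene was tested with limma against its spread within days, which limma draws towards that of other genes of like level. Benjamini-Hochberg adjustment ran over all genes of the table, and a gene is called at an adjusted p under 0.05. From day 21 to day 29, FOS fell by 2.61 (SE 0.59, adjusted p = 0.0196) and DUSP1 fell by 1.0 (SE 0.16, adjusted p = 0.00437). The SDs of FOS within days 21, 25 and 29 were 0.70, 0.62 and 1.36 (n = 2), each larger than its SE.

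ATF3 and IER3 moved the other way. ATF3 (ENSG00000162772, chromosome 1, 212565334 to 212620777), a stress-induced factor of the ATF family, stood at 2.12 and 1.66 on day 21, at 2.67 and 2.43 on day 25 and at 2.94 and 3.17 on day 29, and rose by 1.16 (SE 0.20, adjusted p = 0.00603, limma). IER3 (ENSG00000137331, chromosome 6, 30743199 to 30744548), an NF-κB target that modulates cell survival, stood at 3.82 and 3.54, then 4.13 and 4.10, then 4.23 and 4.62, and rose by 0.74 (SE 0.15, adjusted p = 0.0127, limma). In both genes each day lay above the day before without overlap. Libraries did not overlap in 59.9% of all genes between days 29 and 21, in 50% between days 25 and 21 and in 47.6% between days 29 and 25. Between days 29 and 21 this held for FOS, DUSP1, IER2, ATF3, IER3 and FOSL1, 6 of the 9 members tested.

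The other members did not pass the test between days 29 and 21. EGR1 (ENSG00000120738, chromosome 5, 138465479 to 138469303) stood at 7.85 and 6.97, then 7.53 and 7.0, then 7.02 and 6.73, with overlapping days and a difference of -0.53 (adjusted p = 0.235, limma). IER2 (ENSG00000160888, chromosome 19, 13150411 to 13154911), a small nuclear protein, ranged only from 6.98 to 7.37, with day 29 below day 21 by 0.23 and a limma adjusted p = 0.136. JUN (ENSG00000177606, chromosome 1, 58776845 to 58784048) ranged from 7.48 to 7.89 and JUNB (ENSG00000171223, chromosome 19, 12791486 to 12793315) from 5.46 to 6.41, with differences of 0.15 and 0.39. Both overlapped between days 29 and 21, with limma adjusted p = 0.391 for JUN and 0.283 for JUNB, which does not show that they held level. FOSL1 (ENSG00000175592, chromosome 11, 65892049 to 65900573), known as FRA-1, was at the edge of detection, with 0 to 9 reads a library.

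With FOSB left out, 4 of 9 members were called between days 29 and 21, 2 higher and 2 lower, where 18.4% of all genes were called, 10.0% higher and 8.33% lower. The list was drawn up with values by day in view, so nothing is read from this count. Between days 25 and 21 limma called 0 of 9, with 5.37% of all genes called. There edgeR called 1 (7.16% of all genes) and DESeq2 called 2 (9.27%). Between days 29 and 25 limma also called 0 of 9, with 2.08% of all genes called, while edgeR called 0 (4.83% of all genes) and DESeq2 called 1 (6.55%). At an unadjusted limma p under 0.05 stood 3 members between days 25 and 21 and 4 between days 29 and 25. The share of all genes at that unadjusted threshold is not given here, so nothing is read from these counts. FOS was no longer called without either day 21 library (-2.11 without Org1, -3.11 without Org2) or on a log2(CPM + 0.1) scale. It was called at -1.65 without Org2 of day 29 and at -3.57 without Org1 of day 29, and IER3 was not called without Org2 of day 21 (0.60) or Org2 of day 29 (0.55). Without Org1 of day 21 JUNB was called higher (0.77), but it differed by 0.02 without Org2 of that day. Without Org2 of day 21 EGR1 (-0.97) and IER2 (-0.38) were called lower, but they differed by -0.10 and -0.09 without Org1 of that day.

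**Figure D1:**
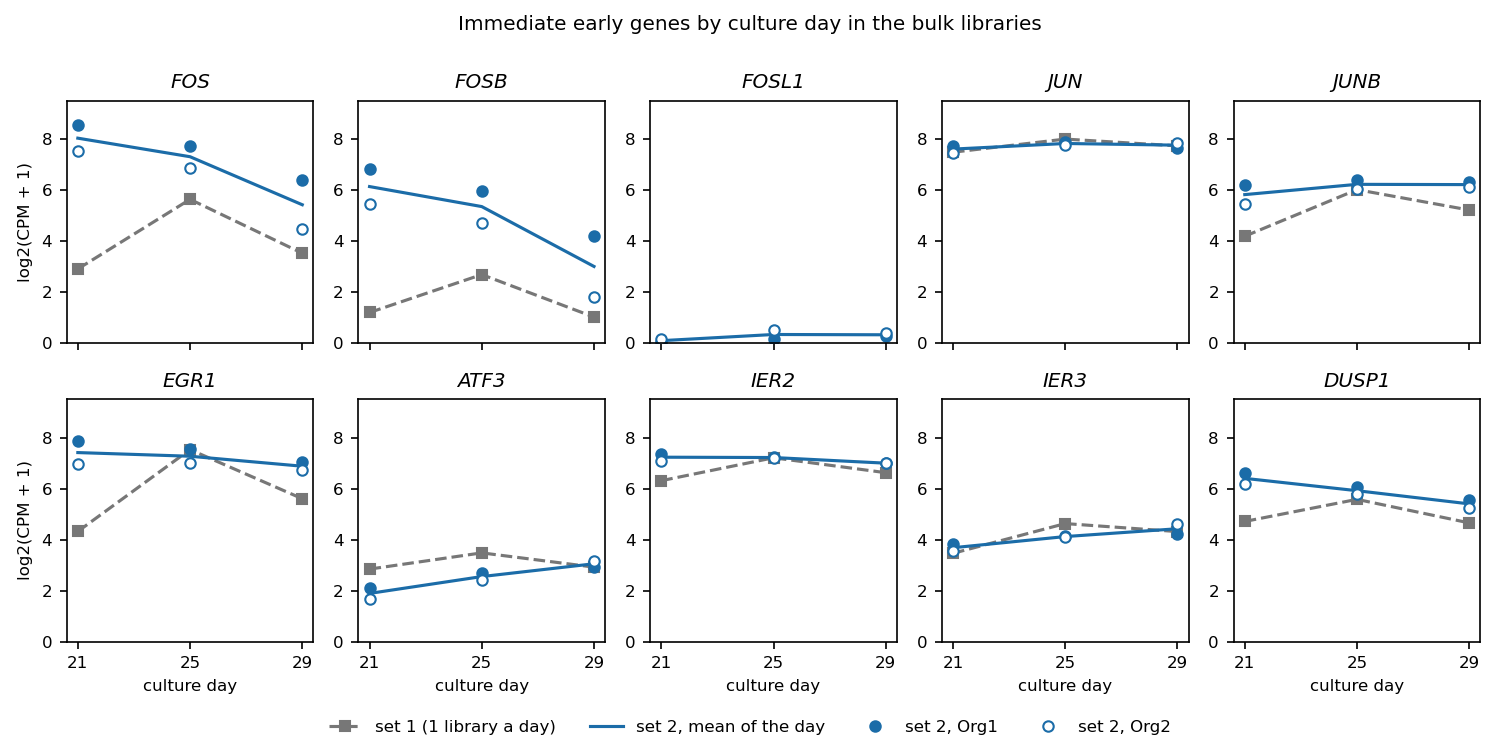
Level of each gene, as log2(CPM + 1), against culture day. Grey squares are the single libraries of set 1, blue circles the Org1 (filled) and Org2 (open) libraries of set 2, and the line their mean. In set 2 FOS and FOSB descend from day 21 to day 29 while ATF3 and IER3 ascend. In set 1 all 9 listed genes peak on day 25.

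The rest of the pathway was read from lists of related genes. These lists were also chosen with earlier results of these data known, so their counts, here and below, are descriptions only. Of all genes, 10.0% were called higher and 8.33% lower between days 29 and 21. Of 10 listed relatives in the AP-1 and ATF families, 1 rose between days 21 and 29 and 0 fell. The 1 was FOSL2 (1.27, SE 0.08, limma adjusted p = 0.000102), the closest relative of FOSL1, which ranged from 5.17 to 6.56 and so went opposite to FOS and FOSB. Among 15 other immediate early transcription factors 3 rose and 0 fell, with KLF2 (1.17) and NR4A3 (0.94) the largest. Among 28 feedback and effector genes 8 rose and 8 fell. GADD45B, a growth arrest gene, rose by 1.32 and PHLDA1 by 1.17, while CCN2, a matrix-associated growth factor, fell by 2.08 and the kinase SGK1 fell by 1.15. Of 14 upstream factors and kinases 2 rose, ELK3 (1.33) and ELK1 (0.38), and none was called lower. The median differences of these 4 lists lay between -0.01 and 0.11, beside -0.02 for all genes.

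Markers of cell types moved over the same days. Of 9 podocyte markers 6 fell and 0 rose. Their summed level in Org1 and Org2 was 11710 and 12310 CPM on day 21 and 9743 and 9949 on day 25. On day 29 it was 8217 and 3925 CPM. Org2 of day 29 had the least FOS and FOSB in set 2, the lowest podocyte markers and the highest stromal markers. On days 21 and 25, Org2 had more podocyte marker RNA than Org1 but less FOS and FOSB. Of 8 stromal markers 7 rose and 0 fell, with summed levels of 3628 and 2923 CPM on day 21 and 11470 and 14150 CPM on day 29. Neuron (7 of 8), mural (6 of 7), muscle (6 of 8 listed) and endothelial markers (4 of 5) rose as well, with 0 falling. Proximal tubule markers fell in 5 of 9 and rose in 0. Of 10 heat shock genes 1 rose, HSPB1 (0.71), and 1 fell, HSPD1 (-0.32), and their summed level stayed between 1778 and 1928 CPM. The part of cell composition in the changes of the immediate early genes was not tested.

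FOS was the gene most like FOSB. Among 18571 genes with a mean of at least 1, Pearson's r with FOSB over the 6 set 2 libraries was 0.9988 for FOS, the highest of all, followed by ENSG00000276772 (0.9971), ERVK9-11 (0.9953), AHCTF1 (0.9946) and DNAI1 (0.9943). Of these, AHCTF1, a nuclear pore protein, spanned only 0.33 and DNAI1, an axonemal dynein chain, 0.47, where FOS spanned 4.07. Among members, r was 0.9422 for DUSP1, 0.8461 for EGR1, 0.8438 for IER2, -0.0136 for JUNB, -0.2401 for JUN, -0.7009 for ATF3 and -0.7839 for IER3. The 6 points share days and libraries, so these values describe likeness only.

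**Figure D2:**
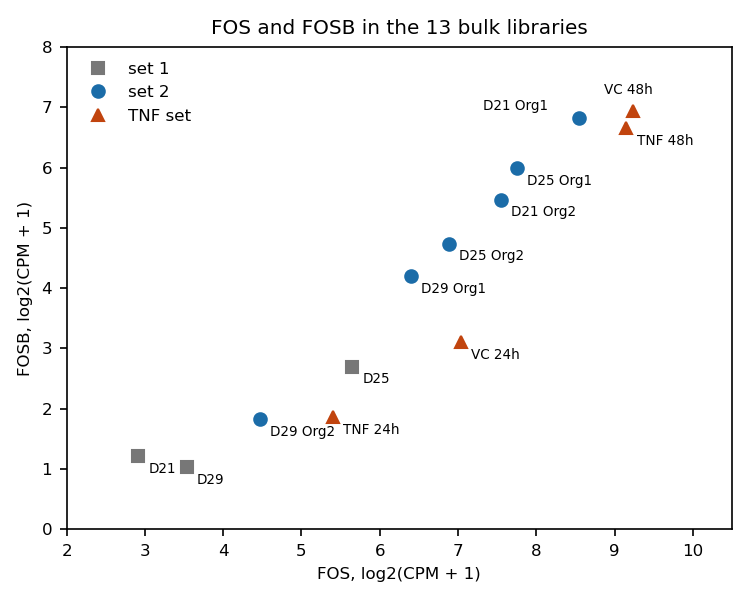
FOSB against FOS in each of the 13 bulk libraries, both as log2(CPM + 1), with each point labelled by day or treatment. Within set 2 the 6 points lie nearly on a line, from 4.47 and 1.83 in Org2 of day 29 up to 8.54 and 6.82 in Org1 of day 21. The 3 tables (squares, circles, triangles) were normalized separately.

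In set 1, with 1 library a day and no test, the same genes made a peak on day 25 instead. FOS stood at 2.92, 5.64 and 3.53 on days 21, 25 and 29, EGR1 at 4.32, 7.53 and 5.60, and FOSB at 1.21, 2.69 and 1.03 (38, 146 and 26 reads). JUNB followed with 4.20, 6.02 and 5.22, IER3 with 3.46, 4.63 and 4.31, and DUSP1 with 4.71, 5.58 and 4.65. ATF3 stood at 2.84, 3.48 and 2.92, IER2 at 6.31, 7.21 and 6.62, and JUN at 7.49, 8.01 and 7.74. All 9 listed members were highest on day 25, as were 27.1% of all genes, and they stayed so with each library centred on its median and with log2(CPM + 0.1). The rise from day 21 to day 25 ran from 0.52 in JUN to 3.21 in EGR1 with a median of 1.17, beside 0.02 for all genes, and reached 1 in EGR1, FOS, JUNB, FOSB and IER3, as in 1.35% of all genes. FOSB, whose course by day in set 1 was part of the choice, is in these counts and in the median. The other members were chosen with values by day known, so nothing is read from the counts. The cause of the day 25 peak was not tested, and 1 library carries it.

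Many other immediate early genes of set 1 had the same day as their highest, as did 27.1% of all genes. Of 15 further transcription factors 12 were highest on day 25, with EGR3 at 1.12, 3.17 and 1.74 and EGR2 at 0.76, 2.68 and 1.23. Of 28 feedback and effector genes 18 were highest then, including the phosphatase DUSP2 (1.42, 3.60 and 2.48) and the matrix protein CCN1 (3.89, 5.63 and 4.91). Of 9 AP-1 and ATF relatives this was 6, of 14 upstream factors and kinases 3, and of 10 heat shock genes 3. The summed level of the podocyte markers was 7406, 4624 and 3007 CPM over the days, and that of the stromal markers 6018, 13580 and 15780 CPM. Mitochondrial genes (8009, 10610 and 8170 CPM), endothelial markers (69.3, 90.4 and 63.3 CPM) and glia or neural crest markers (376, 417 and 241 CPM) were highest on day 25 as well, and their part in the peak was not tested.

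In the TNFα set, members of the list went up and down with treatment, at a time when the cytokine's targets were raised. All 12 listed NF-κB targets rose with TNFα, with a median difference of 3.42. IER3 stood at 4.65 and 4.72 in the VC libraries of 24 h and 48 h and at 5.81 and 5.89 in the TNFα libraries. JUNB stood at 6.09 and 8.07 in VC and at 7.29 and 8.69 in TNFα, and ATF3 at 3.71 and 3.53 in VC and at 4.31 and 4.02 in TNFα. These 3 genes were above the VC library of the same time at both times. With 1 library per time and treatment, the p-values for treatment, here and below, do not measure the spread between cultures. With time and treatment as terms, so that the times stand in for replicates, IER3 rose by 1.16 (SE 0.07, adjusted p = 3.0e-09, limma), JUNB by 0.91 (SE 0.09, adjusted p = 1.15e-06) and ATF3 by 0.54 (SE 0.10, adjusted p = 0.000538).

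FOS, FOSB and EGR1 were lower with TNFα, mostly at 24 h. FOS stood at 7.03 in VC and 5.40 in TNFα at 24 h and at 9.23 and 9.15 at 48 h. FOSB stood at 3.10 and 1.86 at 24 h (410 and 138 reads) and at 6.94 and 6.66 at 48 h (6062 and 5916 reads), and EGR1 at 7.12 and 6.44, then 9.32 and 9.23. The TNFα minus VC difference was thus -1.63 for FOS, -1.24 for FOSB and -0.68 for EGR1 at 24 h but -0.08, -0.28 and -0.09 at 48 h. Averaged over the times, limma called FOSB (fell by 0.76, SE 0.14, adjusted p = 0.000882), FOS (fell by 0.86, SE 0.20, adjusted p = 0.00476) and EGR1 (fell by 0.38, SE 0.09, adjusted p = 0.00714). Each SE is drawn by limma towards the spread of other genes of like level. In FOS, FOSB and EGR1, and in JUNB above, the differences at 24 h and 48 h lay farther apart than the SE implies. The average fall of these 3 genes rests mostly on 24 h. Whether the difference changed between 24 h and 48 h could not be tested with 1 library each.

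JUN (7.96 and 8.08 at 24 h, 9.01 and 9.0 at 48 h), IER2 (7.23 and 7.25, then 8.53 and 8.64) and FOSL1 (0.38 and 0.85, then 0.41 and 0.43) did not pass the test. DUSP1, at 5.58 and 5.68 and then 6.90 and 7.20, missed it at 0.20 (SE 0.07, adjusted p = 0.0577, limma) and was called with edgeR, after median centring and among genes with a mean of at least 1. In all 6 of 10 members were called, 3 higher and 3 lower, where 19.3% of all genes were called, 8.42% higher and 10.8% lower. The members were chosen with earlier results of these data known, so nothing is read from this count. The count was 3 with DESeq2 (11.4% of all genes), which did not call FOS, FOSB or EGR1, and 4 with limma without a trend (15.2%), which did not call FOS or EGR1. With time left out of the model only IER3 was called, with 6.21% of all genes.

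**Figure D3:**
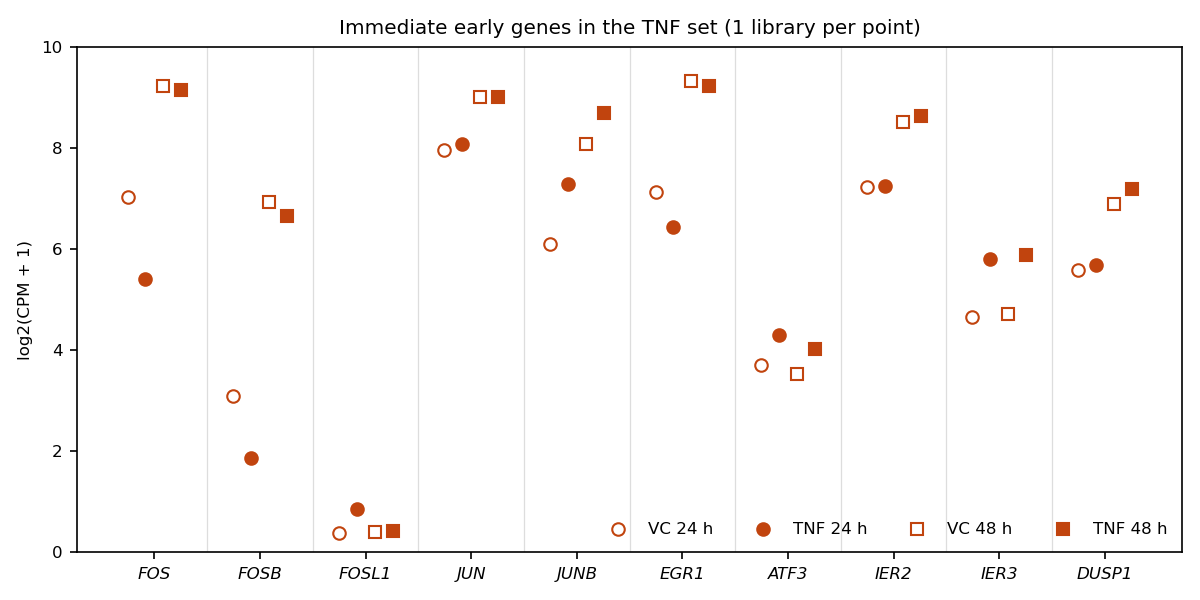
Level of each gene, as log2(CPM + 1), in the 4 libraries of the TNFα set. Open symbols are VC and filled symbols TNFα, circles 24 h and squares 48 h, 1 library each. IER3, JUNB and ATF3 lie higher in TNFα than in VC at both times, and FOS, FOSB and EGR1 lie higher at 48 h than at 24 h in both treatments.

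With TNFα, more of the listed feedback and effector genes were called higher than lower, a description of a list chosen with earlier results known. Of all genes, 8.42% were called higher and 10.8% lower. Among 28 feedback and effector genes 16 rose, led by PHLDA1 (1.5) and the phosphatase DUSP10 (0.77), and 1 fell, GADD45A (-1.24), with a list median of 0.27 beside -0.03 for all genes. Of 10 AP-1 and ATF relatives 3 rose, with MAFF (1.52), a small MAF protein, and FOSL2 (0.75) the largest, and the AP-1 repressor JDP2 fell by 0.37. Of 15 other transcription factors 5 rose, led by MYC (0.97) and KLF10 (0.66), and KLF2 fell by 0.59. Of 14 upstream factors and kinases 2 rose and 1 fell, and of 10 heat shock genes 1 rose and 2 fell. All 9 podocyte markers fell with TNFα, with summed levels of 7342 and 6839 CPM in VC and 4448 and 3313 CPM in TNFα, and 8 of 9 proximal tubule markers fell. Their part in the lower FOS, FOSB and EGR1 was not tested.

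FOSB, FOS and 5 other members were higher at 48 h than at 24 h, a comparison chosen after the values had been seen. FOSB was higher at 48 h than at 24 h by 3.84 in VC and by 4.79 in TNFα, FOS by 2.20 and 3.75, and EGR1 by 2.20 and 2.79. JUNB was higher by 1.98 and 1.40, DUSP1 by 1.32 and 1.52, and IER2 by 1.29 and 1.39. In these 6 genes and in JUN both 48 h libraries lay above both 24 h libraries. In the same limma model FOSB rose by 4.32 (SE 0.14, adjusted p = 5.81e-12), FOS by 2.97 (SE 0.20, adjusted p = 6.42e-08), EGR1 by 2.49 (SE 0.09, adjusted p = 3.0e-11) and JUNB by 1.69 (SE 0.09, adjusted p = 4.23e-09). DUSP1 (1.42), IER2 (1.34) and JUN (0.99) were called as well, while IER3 (0.07), ATF3 (-0.23) and FOSL1 (-0.20) were not. Here VC and TNFα stand in for replicates of each time, so the p-values do not measure the spread between cultures. Because the comparison was chosen from these values, they describe the difference and give no independent support.

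This made 7 of 10 members higher at 48 h, where 9.48% of all genes were called and 4.63% were called higher. The count was 7 under each alternative test and scale that was run. With the comparison chosen from the same values, nothing is read from this count. The median of the members was 1.38, beside 0.02 for all genes. Of all 21093 genes, 17 were higher at 48 h by at least 1 in both VC and TNFα (0.0806%), and 6 of these are members, FOSB, FOS, EGR1, JUNB, DUSP1 and IER2. The other 11 were SOCS3 and ZFP36, which limit cytokine signalling and the life of cytokine RNAs, NR4A1, KLF4, IER5L, ARRDC3, DDIT4, ANKRD37, NPY, GATA4 and ACTC1, named here because all 17 are given. The genes lower by at least 1 in both numbered 6, with 0 members. Since 1 library stands for each time and treatment, time, replenishment of the 48 h wells on day 24 and handling of the wells cannot be told apart. The same holds for culture day, since the days labelled for the 24 h wells conflict.

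**Figure D4:**
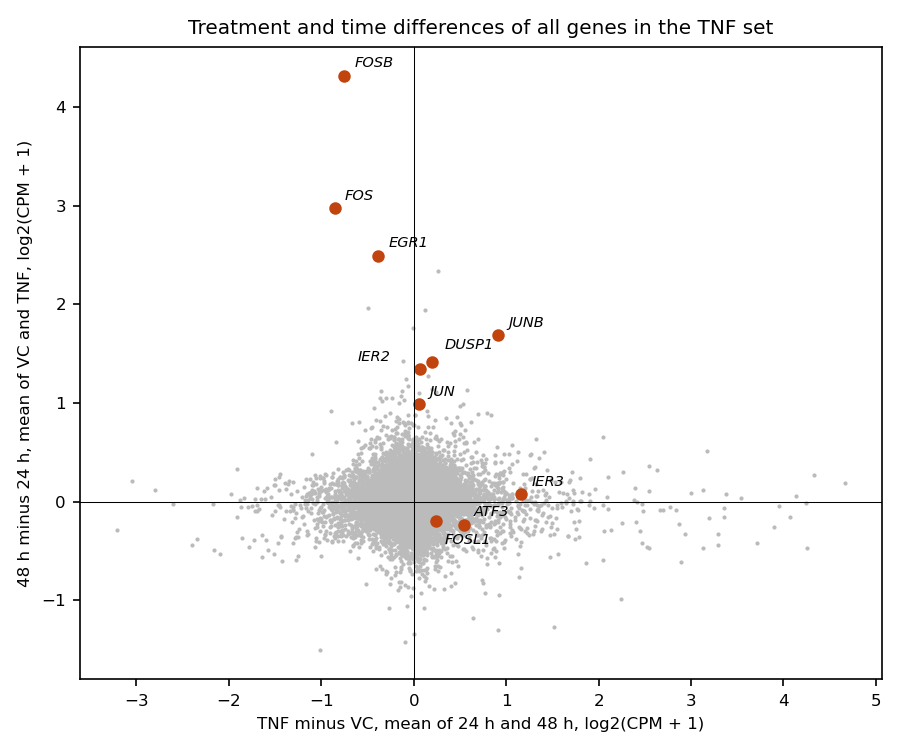
Difference between 48 h and 24 h (mean of VC and TNFα) against difference between TNFα and VC (mean of both times), in log2(CPM + 1), for all 21093 genes (grey) and the 10 members (orange, named). FOSB, FOS and EGR1 stand above nearly all other genes on the vertical axis at 4.32, 2.97 and 2.49, while IER3 and JUNB lie farthest right among the members, at 1.16 and 0.91.

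Not all immediate early genes rose by 48 h. Of all 21093 genes, 976 were called higher and 1024 lower. Of 10 AP-1 and ATF relatives 0 rose and 4 fell, with MAFF (-1.27) and FOSL2 (-0.83) the largest. Of 15 other transcription factors 6 rose, led by NR4A1 (1.13) and KLF4 (1.10), and 3 fell, led by NR4A3 (-1.07), a close relative of NR4A1, and CSRNP1 (-0.46). Of 28 feedback and effector genes 11 rose, led by ZFP36 (1.95) and the antiproliferative gene BTG2 (0.87), and 6 fell, led by DUSP10 (-0.92) and SPRY4 (-0.60). Of 14 upstream factors and kinases none was called by limma, and of 10 heat shock genes 1 rose, HSPA1B (0.52). Muscle markers rose in 8 of 8 listed, proliferation markers in 6 of 7 and neuron markers in 6 of 8. Early nephron markers rose in 4 of 6 and glia or neural crest markers in 3 of 7, with 0 falling in any of these lists. Podocyte markers fell in 6 of 9. The part of these cell types in the rise was not tested.

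The single-cell libraries show which cells carried these RNAs on day 24. The VC library had 12494 barcodes, of which 11906 with over 500 genes were kept, with a median of 6358.5 UMIs (unique molecular identifiers, 1 per captured RNA molecule). The TNFα library had 23160, all kept, with a median of 2599 UMIs and none under 1514, and 74 barcodes occur in both. Cells were clustered without the genes of this report and clusters named only from separate markers, which gave 8 named classes and 3 clusters with no name. Values are CPM, here the share of a gene in all UMIs of its class scaled to 1e6, and the intervals are exact 95% Poisson intervals, which hold the error of counting and nothing else. Each condition is a single library, so no test was made, and the libraries, their depth and the treatment cannot be told apart.

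JUNB, EGR1 and IER3 had the largest ratios between the libraries. Over all cells JUNB was at 26.1 CPM (25.1 to 27.1) in VC and 87.3 (85.3 to 89.2) in TNFα, a ratio of 3.34. EGR1 was at 8.87 (8.30 to 9.48) and 25.0 (24.0 to 26.0), a ratio of 2.81, and IER3 at 46.2 (44.9 to 47.5) and 108 (106 to 110), a ratio of 2.34. FOS, with 477 and 656 UMIs, was at 4.74 and 7.20 (ratio 1.52), IER2 at 120 and 165 (1.38), ATF3 at 5.03 and 6.12 (1.22) and JUN at 137 and 152 (1.11). DUSP1 was at 23 and 22.6, with an interval of the ratio from 0.925 to 1.04. FOSB and FOSL1 were too sparse to compare, at 20 and 21 UMIs and at 17 and 19 UMIs in all cells. Of 18943 genes with at least 50 UMIs, 5.40% were 1.5 times higher or more in the TNFα library, which was so for 4 of the members, JUNB, EGR1, IER3 and FOS.

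The direction was shared by all 8 named classes for JUNB, EGR1, IER2 and IER3, as for 4.60% of all genes with at least 50 UMIs. With each library clustered on its own, EGR1 and IER2 in muscle-like cells turned. In that setting no TNFα cluster was named stromal or proximal tubule, so those classes could not be compared. RNAs of other cell types were also higher in the TNFα library in many classes. Podocyte markers summed to 93.9 CPM in VC and 427 in TNFα in glia or neural crest-like cells, to 222 and 681 in muscle-like cells and to 263 and 710 in neuron-like cells, while in podocyte-like cells they were at 9426 and 4798 CPM. Stromal markers were at 255 and 848 CPM in proximal tubule-like cells. The part of free RNA in the shared direction was not tested. For IER2 in neuron-like cells the ratio was 1.04, with an interval from 0.987 to 1.10. JUNB was at 44.8 CPM (41.4 to 48.5) in VC and 132 (126 to 138) in TNFα in stromal-like cells, at 29.1 (26.3 to 32.0) and 113 (108 to 118) in podocyte-like cells, and at 9.73 (7.26 to 12.8) and 53.7 (43.7 to 65.2) in neural progenitor-like cells. IER3 was highest in stromal-like cells in both libraries, at 129 and 181 CPM, and its ratio was 4.39 (3.92 to 4.93) in podocyte-like cells but 1.41 (1.32 to 1.49) in stromal-like cells. EGR1 went from 2.93 to 19.1 CPM in podocyte-like and from 2.49 to 18.1 in neuron-like cells, the classes with the least of it in VC, and from 25.6 to 38.2 in muscle-like cells, the named class with the most in VC. The EGR1 ratio of podocyte-like cells, 6.52, was 2.24 with each library clustered on its own and 11.4 with every cell thinned to 1500 UMIs, the latter resting on 5 UMIs in VC. In muscle-like cells most VC cells (978 of 1120) came from a cluster led by NEB and MYOD1 and most TNFα cells (1422 of 2644) from another led by MYLPF and MYL1.

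JUN and ATF3 differed between named classes in their direction. JUN was at 240 CPM (232 to 248) in VC and 174 (168 to 181) in TNFα in stromal-like cells and at 212 and 143 in neuron-like cells, but at 89.3 (84.5 to 94.3) and 180 (174 to 186) in podocyte-like cells. ATF3 was at 16.0 (14.0 to 18.3) and 7.44 (5.86 to 9.31) in neuron-like cells but at 1.25 and 5.21 in podocyte-like cells. DUSP1 was at 54.0 CPM (50.1 to 58.0) in VC and 34.8 (31.2 to 38.6) in TNFα in neuron-like cells. In podocyte-like cells it was at 34.0 and 35.8, with an interval of the ratio from 0.936 to 1.19. In no named class did the DUSP1 interval lie above 1. Of 73 pairs of a member and a named class with UMIs in both libraries, the interval of the ratio lay above 1 in 45 (61.6%) and below 1 in 4, namely JUN in neuron-like and stromal-like cells and ATF3 and DUSP1 in neuron-like cells. Over all genes with at least 50 UMIs, which leaves out FOSB and FOSL1, it lay above 1 in 17.1% and below 1 in 15.8% of 145634 such pairs. The width of an interval depends on the UMIs, and members and all genes were not matched for them, so the shares are not directly comparable. FOS, with 22 to 143 UMIs in a class, had its interval above 1 in stromal-like (ratio 1.62), neuron-like (3.35) and proximal tubule-like cells (3.09).

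Of the clusters with no name, 1 led by the vascular genes GJA4, SOX17, EDN1 and CDH5 had the highest VC levels of JUN (351 CPM), IER2 (290 CPM), JUNB (85.8 CPM) and ATF3 (52.7 CPM) of all classes and clusters. Its 456 VC cells had a median of only 970.5 UMIs. Shallow cells and high levels of these genes came together there, but EGR1 was at only 7.53 CPM, and the part of depth was not tested. The TNFα library holds no cell under 1514 UMIs. Its 1140 cells of this cluster were at 146 CPM for JUN, 199 for IER2 and 8.89 for ATF3. DUSP1 was lower too, at 48.2 CPM in VC and 22.9 in TNFα, while EGR1 was higher, at 41.2 CPM in TNFα. For JUNB (100 CPM in TNFα), IER3 (108 and 130 CPM) and FOS (13.5 and 12.2 CPM) the interval of the ratio held 1.

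**Figure D5:**
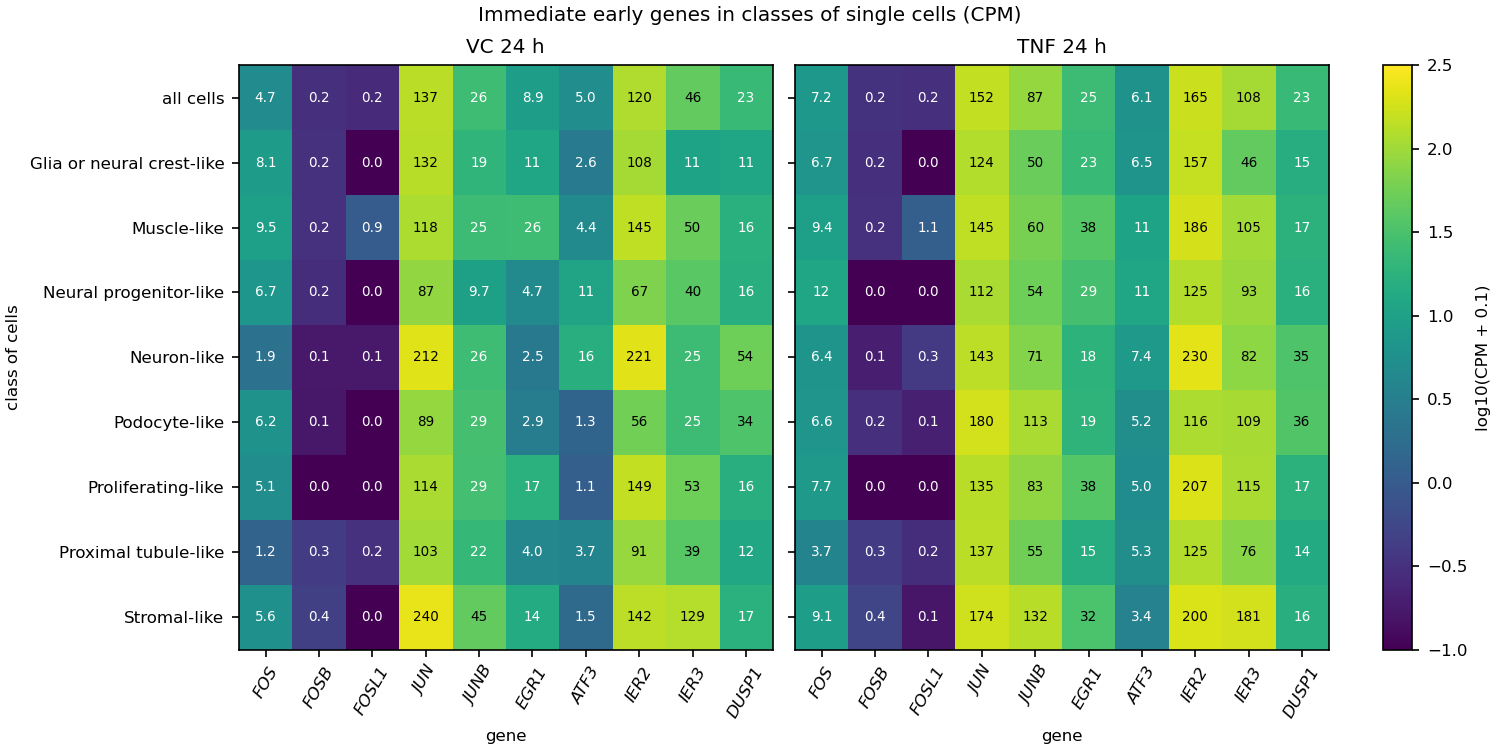
CPM of each gene in each named class of cells for the VC library (left) and the TNFα library (right), with colour on a log10(CPM + 0.1) scale and the CPM printed in each cell. The JUNB and IER3 columns are higher in every row of the right panel, and the FOSB and FOSL1 columns are near 0 in both.

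The readouts of TNFα at 24 h did not point the same way for FOS and EGR1. Isolated spheroids had 1.63 less FOS and 0.68 less EGR1 on the log2 scale with TNFα, while dissociated whole wells had 1.52 and 2.81 times as much. JUNB, ATF3 and IER3 were higher with TNFα in both, by 1.20, 0.60 and 1.17 on the log2 scale in spheroids at 24 h. The samples differ in the cells they hold, in their preparation and, by the labels, in day. Each condition is 1 library, and the difference between the readouts was not tested.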

How the data were processed

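For the bulk log2 values, the authors aligned reads with STAR 2.7.8a, made gene counts with HTSeq and applied voom before the tables were deposited. The deposited log2 values equal log2(CPM + 1) with 0.5 added to each count, and whole reads came back from 100% of values. The single-cell UMI counts were deposited by the authors as filtered Cell Ranger matrices, without normalization. The submitters' processing notes name both hg19 and hg38. A further day 25 single-cell sample is not analysed here.

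The members and lists were chosen with earlier results of these data known. Set 2 was fitted with a mean per day, and the TNFα set with time and treatment, on the deposited values with limma 3.58.1 (eBayes with a trend, R 4.3.3), with Benjamini-Hochberg adjustment across the whole table. The labels do not say that Org1 and Org2 are separate cultures, so p-values measure the spread between these samples only. Alternatives were edgeR 4.0.16 and DESeq2 1.42.0 on the recovered reads, median centring, log2(CPM + 0.1), a mean of at least 1, no trend, a replicate block and each library left out. In simulated set 2 data of 27650 genes, limma called 200 of 200 changed genes and 0 others for day 29 against day 21. In simulated TNFα data of 21093 genes it called 200 of 200 and 8 others. The planted changes were large and the simulated spread within groups was small, so these runs check the code only.

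Cells with over 500 genes were clustered on 2000 variable genes per library, without the reported genes, 30 components aligned by Harmony and 20 neighbours at a resolution of 0.25 (leidenalg 0.10.2), and named by at least 3 markers. Clustering of 3200 simulated cells from 4 groups, each with strong markers, put 100% with their group, which checks the code only. Scrublet in scanpy 1.11.5 called 339 doublets (2.85%) in VC and 0 in TNFα, where it did not work, and doublets were kept. All 10 members are named, and of each other list at most the 2 largest called rises and falls. Genes were matched by symbol and identifier to GENCODE 44, in 19905 of 20121, 27240 of 27650 and 21047 of 21093 genes. Sequences are from RefSeq, GRCh38.p14.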

Additional observations from a re-analysis of the deposited data

Results flagged for a closer look

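For 5 genes a difference between 2 days had one sign in every library of set 1 and the opposite sign in every library of set 2. Set 2 libraries alone did not overlap in 59.9% of all genes between days 29 and 21. This was 50% between days 25 and 21 and 47.6% between days 29 and 25. The share of all genes with opposite signs in the 2 sets is not given here, so nothing is read from the count of 5. Between days 21 and 29, FOS differed by 0.616 in set 1 and by -2.611 in set 2 (log2 scale), and IER2 by 0.314 and -0.234. Between days 25 and 29, ATF3 differed by -0.559 in set 1 and 0.502 in set 2, and IER3 by -0.314 and 0.307. Between days 21 and 25, DUSP1 differed by 0.866 in set 1 and -0.484 in set 2. Within the TNFα set, the difference of JUN between TNFα and VC had opposite signs at the 2 times, 0.118 at 24 h and -0.004 at 48 h, the latter close to 0. Set 1 rests on 1 library a day and the TNFα set on 1 library for each time and treatment, and these differences between groups were not tested.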

How the results depend on the processing

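The call rule and the scale changed few counts. Between days 25 and 21, where limma called 0 of 9 members, edgeR called 1 and DESeq2 2, and between days 29 and 25 DESeq2 called 1 where limma called 0. For TNFα against VC, 3 members were called with DESeq2 and 1 with treatment alone, against 6. The difference of FOSB between days 29 and 21 ranged from -4.32 to -1.95 when each library was left out. The replicate numbers of set 2 were not treated as pairs, since the deviations of same-numbered libraries correlated at 0.0753 to 0.2705 across genes. With the numbers as a replicate block, 1 member was called between days 25 and 21, 2 between days 29 and 25, and 5 between days 29 and 21, EGR1 being added. The share of all genes called with the block is not given here, so nothing is read from these counts. With each library clustered on its own, the ratio of TNFα to VC in muscle-like cells turned to 0.823 for EGR1 and 0.948 for IER2, where 16786 of 23160 TNFα cells had no name. The causes of these changes were not tested. Of the values for single genes and classes, 605 kept their call or moved by less than their error, 43 moved by more, 15 gained and 15 lost a call, and 2 turned. Depth limits FOSL1 in bulk and FOSB and FOSL1 in single cells, where counts were too few for a direction.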
